A study of Homo sapiens with 4 samples.

Results

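The D and E cyclins (CCND1, CCND2, CCND3, CCNE1 and CCNE2), the kinases they activate (CDK2, CDK4 and CDK6) and the phosphatase CDC25A were followed in C4-2 cells after RRM2 silencing. The 9 genes were taken by symbol from 27275 rows of the gene table. C4-2 is a castration-resistant prostate cancer line derived from LNCaP cells. Cells were transfected with a pool of siRNAs against RRM2, the small subunit of ribonucleotide reductase, or with a scrambled siRNA as the control, and each group gave 2 RNA-seq libraries. Both groups were the same cell line, and the labels give no other treatment. Whether both libraries of 1 group stem from separate cultures is stated in neither the labels nor the methods, so the p-values cover the variation seen among these libraries alone, and that variation may be technical. Effects of lower RRM2 cannot be told apart from other effects of the siRNA pool, since 1 pool was used.

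D cyclins pair with CDK4 or CDK6 and carry mitogen signals into the cycle. These kinases begin the phosphorylation of RB, which holds E2F factors inactive, and E2F then drives the genes for cyclin E, CDC25A and DNA replication. Cyclin E activates CDK2 to start S phase, and CDC25A removes the phosphates that hold CDK2 inactive. CDK inhibitors of the INK4 family restrain CDK4 and CDK6, and those of the CIP/KIP family restrain CDK2 complexes. Much of the control of these proteins lies in their phosphorylation and destruction, which RNA does not show.

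Libraries held 28941206 to 29941671 estimated counts with RRM2 siRNA and 27844121 to 28508906 with scrambled siRNA. Values below are normalized counts, that is, counts scaled by trimmed mean of M-values (TMM) factors to a library of 28808976 counts. RRM2 itself had 118 and 125 normalized counts with RRM2 siRNA, against 1333 and 1239 with scrambled siRNA (log2 fold change -3.41, SE, the standard error, 0.08; edgeR, adjusted p = 2.60e-13). All 9 prostate luminal markers reached at least 100 normalized counts, with sums of 297628 to 301452 with RRM2 siRNA and 326354 to 338182 with scrambled siRNA. By the test used below 2 of the 9 were higher and 5 lower, against 25.4% higher and 25.0% lower over all genes tested. Among them KLK2 alone passed 1.5-fold, with 11600 and 10592 normalized counts with RRM2 siRNA and 24516 and 25190 with scrambled siRNA. Of 11 markers of fibroblasts, leukocytes and endothelium, 6 stayed under 10 in every library, among them COL1A2, DCN, PTPRC and CDH5, and 4 were at 0 in some library, while COL1A1, CD68 and VWF reached 100. These 11 summed to 3095 to 3214 normalized counts with RRM2 siRNA and 2653 to 2708 with scrambled siRNA. Of the 11, 5 could be tested, and 3 of these were higher and 0 lower, beside the same shares over all genes tested. PECAM1 passed 1.5-fold, at 14.1 and 19.3 normalized counts with RRM2 siRNA and 6.05 and 6.25 with scrambled siRNA. The part of either marker list in the results was not tested. Structural RNA genes took 8.28% of the counts in RRM2 siRNA replicate 2, against 3.93% to 4.52% in the other libraries. Leaving these genes out changed no call among the 9 members.

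All 9 members passed the expression filter, and all 9 differed between the groups at an adjusted p under 0.05 (edgeR quasi-likelihood test, adjusted over 15840 genes). CCND3, CCNE2, CDK2, CDK6 and CDC25A, 5 of the 9, were higher with RRM2 siRNA, and CCND1, CCND2, CCNE1 and CDK4, the other 4, were lower. Over all genes tested 25.4% were higher and 25.0% were lower by the same rule, so a member that passed it was in the company of many other genes. With a fold change over 1.5 as well, 2 members were higher (CCNE2 and CDK2) and 1 was lower (CCND2), against 5.90% of all genes higher and 5.25% lower. The normalized counts of the groups did not overlap for any of the 9 members, as for 75.0% of all genes tested. The median absolute log2 fold change was 0.34 over the members and 0.22 over all tested genes. Within each family of cyclins, and among the kinases, members changed in opposite directions. In bulk RNA, a shift in how many cells were in each phase of the cycle and a change of an mRNA per cell cannot be told apart.

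**Figure D1:**
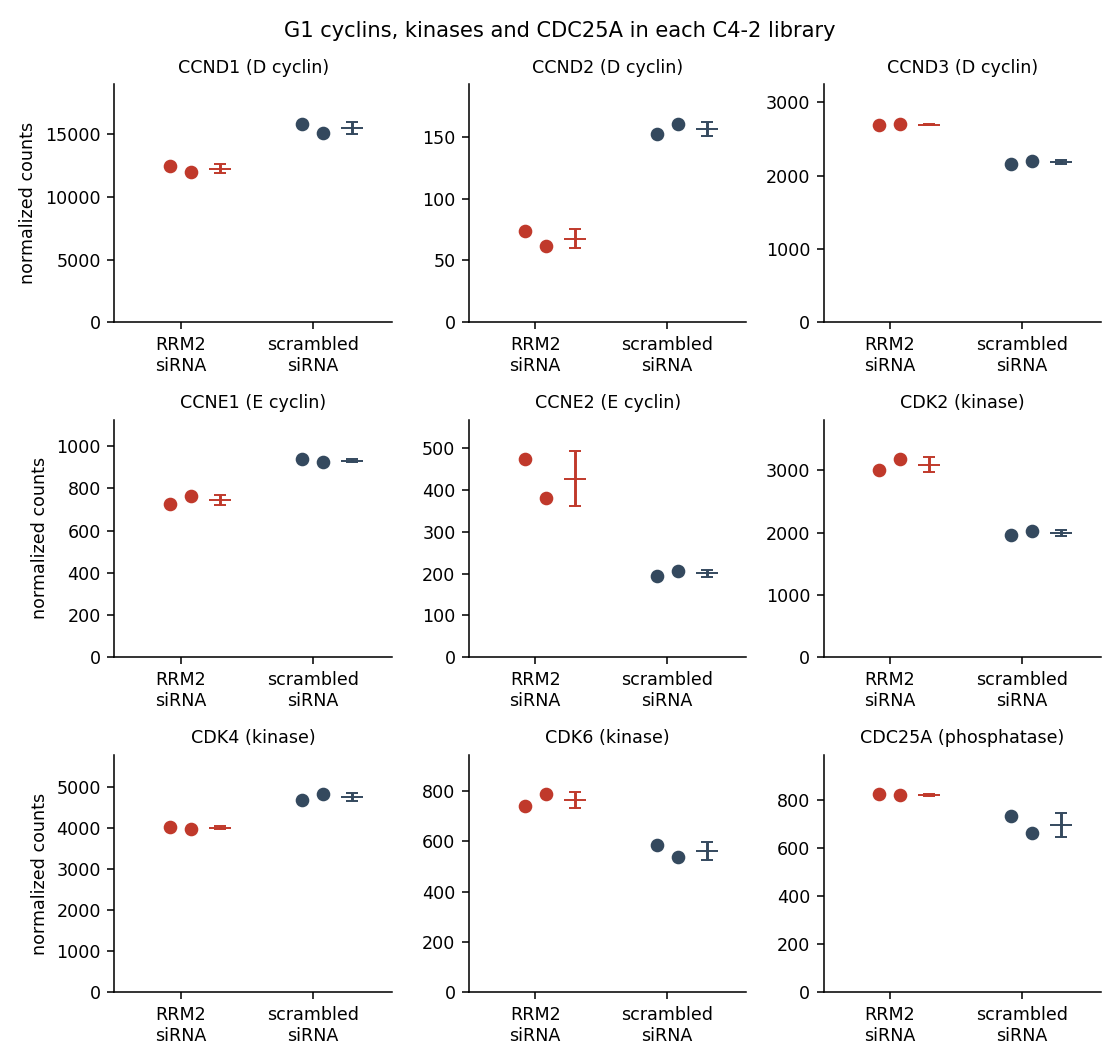
Normalized counts of each member in the 2 RRM2 siRNA libraries (red) and the 2 scrambled siRNA libraries (dark), each axis starting at 0, with the mean and SD beside the points. The groups do not overlap in any panel, and the spread between the RRM2 siRNA libraries, relative to their mean, is widest for CCNE2, at 474 and 381.

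Among the D cyclins, CCND1 and CCND2 fell and CCND3 rose. CCND1 (cyclin D1; GRCh38 chromosome 11 as for all positions given here, 69641105 to 69654474, plus strand), the member with the most counts, had 12498 and 12006 normalized counts with RRM2 siRNA, against 15818 and 15131 with scrambled siRNA. Its log2 fold change was -0.34 (SE 0.04; edgeR, adjusted p = 3.49e-06), so both RRM2 siRNA libraries lay below both controls, by 20.8% on the means. CCND2 (cyclin D2; chromosome 12, 4273736 to 4305356, plus strand) had 73.4 and 62.0 normalized counts with RRM2 siRNA and 152 and 160.3 with scrambled siRNA. This was the steepest fall of the 9, at -1.20 on the log2 scale (SE 0.17; edgeR, adjusted p = 3.90e-05), at counts far below those of the other D cyclins. Its antisense partner CCND2-AS1 was at 0 in all 4 libraries. Only 0.934% of tested genes had a lower log2 fold change than CCND2.

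CCND3 (cyclin D3; chromosome 6, 41934933 to 42048894, minus strand) moved the other way. It had 2688 and 2703 normalized counts with RRM2 siRNA, against 2161 and 2203 with scrambled siRNA, with a spread between replicates far smaller than the difference. Its log2 fold change was 0.30 (SE 0.04; edgeR, adjusted p = 4.07e-05), a rise of 23.5% on the means. Levels of different genes can be set side by side only per length, here as normalized counts per kb of the longest principal transcript in GENCODE v29. On that scale the 3 D cyclins summed to 4202 and 4093 per kb with RRM2 siRNA, against 4733 and 4595 with scrambled siRNA. CCND3 made up 30.7% and 31.7% of this sum with RRM2 siRNA, against 21.9% and 23.0% with scrambled siRNA, and CCND1 held most of the rest. CCND2 stayed under 1% in every library, at 0.270% and 0.234% with RRM2 siRNA and 0.496% and 0.539% with scrambled siRNA. Neither the sum nor the share overlapped between groups, but with 2 libraries against 2 an exact two-sided permutation test cannot go below p = 0.333, the value each gave. The share depends on the length taken: over the union of all exons, a choice made after seeing the data, CCND3 held 15.4% with RRM2 siRNA and 10.4% with scrambled siRNA on the means.

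The E cyclins, which activate CDK2, also split. CCNE1 (cyclin E1; chromosome 19, 29811994 to 29824317, plus strand) had 728 and 763 normalized counts with RRM2 siRNA, against 939 and 926 with scrambled siRNA. The log2 value fell by 0.32 (SE 0.05; edgeR, adjusted p = 1.47e-04). CCNE2 (cyclin E2; chromosome 8, 94880225 to 94895254, minus strand) had 474 and 381 normalized counts with RRM2 siRNA, against 195 and 206 with scrambled siRNA. This was the largest rise of the 9, at 1.09 on the log2 scale (SE 0.11; edgeR, adjusted p = 1.08e-06), and 2.28% of tested genes rose more. The RRM2 siRNA libraries differed from each other more than for any other member relative to the mean, and the log2 fold change was 0.92 without replicate 1 and 1.24 without replicate 2 of that group. CCNE2 overlaps 269 bases of INTS8 on the opposite strand, and the sources do not state whether counting used strand. INTS8, a subunit of the Integrator complex, did not pass (log2 fold change -0.05, SE 0.05; edgeR, adjusted p = 0.386).

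Per kb, the rise of CCNE2 and the fall of CCNE1 nearly cancelled. The E cyclins together had 499 and 488 normalized counts per kb with RRM2 siRNA, against 518 and 515 with scrambled siRNA, a mean difference of -23.5. CCNE2 supplied 28.6% and 23.5% of that sum with RRM2 siRNA, against 11.3% and 12.0% with scrambled siRNA. CCNE1 thus remained the larger part in every library. Again the groups did not overlap, with an exact permutation p = 0.333.

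**Figure D2:**
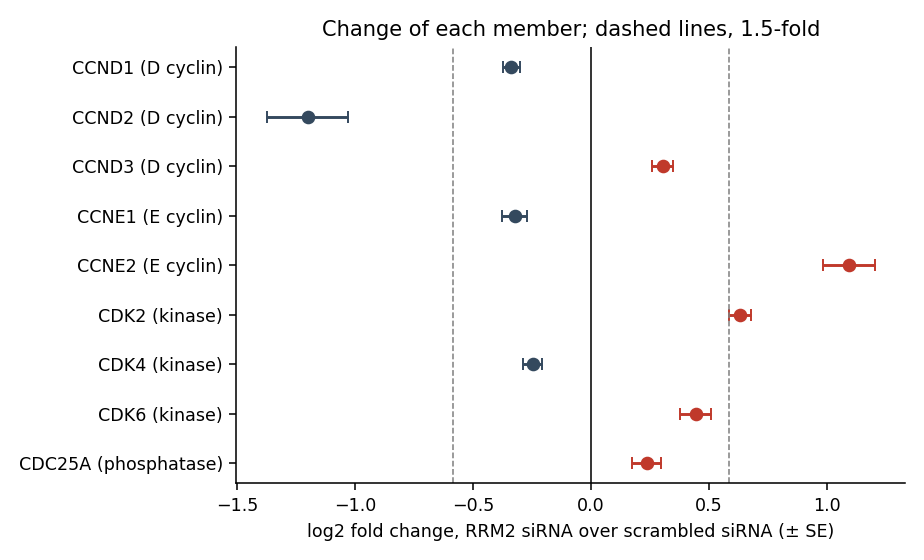
Log2 fold change of each member (horizontal axis, RRM2 siRNA over scrambled siRNA, bars give the standard error), ordered by role, with higher members in red and lower ones dark. CCND2 at -1.20, CCNE2 at 1.09 and CDK2 at 0.63 lie beyond the dashed lines of a 1.5-fold change.

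Of the kinases, CDK2 and CDK6 rose and CDK4 fell. CDK2, the partner of cyclins E and A (chromosome 12, 55966769 to 55972789, plus strand), had 3005 and 3182 normalized counts with RRM2 siRNA and 1961 and 2028 with scrambled siRNA. The log2 fold change was 0.63 (SE 0.05; edgeR, adjusted p = 5.40e-08), the smallest adjusted p of the 9 members. CDK6, a D cyclin partner (chromosome 7, 92604921 to 92836627, minus strand), had 742 and 787 normalized counts with RRM2 siRNA, against 586 and 536 with scrambled siRNA. The log2 value rose by 0.44 (SE 0.06; edgeR, adjusted p = 4.12e-05), a rise of 36.2% on the means that stayed below 1.5-fold.

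CDK4, the other D cyclin partner (chromosome 12, 57747727 to 57752447, minus strand), had 4034 and 3985 normalized counts with RRM2 siRNA, against 4687 and 4825 with scrambled siRNA. Its decrease, -0.25 on the log2 scale (SE 0.04; edgeR, adjusted p = 1.15e-04), was among the smaller ones of the members but well outside the spread between replicates. TSPAN31, a tetraspanin gene that overlaps 517 bases of CDK4 on the opposite strand, did not pass (log2 fold change -0.10, SE 0.05; edgeR, adjusted p = 0.0916). CDK4 is a known MYC target, and whether other members are MYC targets was not looked up. MYC, named here after its value was seen, had 2885 and 2910 normalized counts with RRM2 siRNA, against 7955 and 7706 with scrambled siRNA (log2 fold change -1.43, SE 0.04; edgeR, adjusted p = 2.05e-12). The 300 bases around the CDK4 start (RefSeq, GRCh38.p14, chr12:57752261-57752560, minus strand) are shown because they hold 3 copies of the palindromic E-box CACGTG, the word that MYC with MAX is known to bind, in capitals. The copies begin 216, 196 and 101 bases before the start on which the window is set. That start lies inside the CDK4 positions given above, so the sources place the start differently.
CDK4: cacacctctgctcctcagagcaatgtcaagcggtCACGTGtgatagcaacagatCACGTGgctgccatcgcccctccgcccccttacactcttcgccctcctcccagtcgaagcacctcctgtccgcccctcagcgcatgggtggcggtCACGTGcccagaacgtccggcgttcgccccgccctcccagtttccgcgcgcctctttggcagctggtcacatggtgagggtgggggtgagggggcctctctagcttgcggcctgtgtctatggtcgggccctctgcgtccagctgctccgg
Of 35116 promoter windows of this length 7.26% hold at least 1 such word and 33 hold 3 or more. Promoter windows were searched for 5 of the members (CCND3, CCNE1, CDK4, CDK6 and CDC25A). Those of the other members, among them CCNE2, were not searched. Among their 8 windows, only those of CDK4 and CDK6 hold CACGTG, CDK6 with 1 copy that begins 30 bases after the start on which its window is set. Thus one kinase with the word was lower and one was higher, and whether MYC bears on either was not tested.

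The ratio of the kinases shifted as well. CDK2 stood at 0.674 and 0.722 of the CDK4 level per kb with RRM2 siRNA, against 0.378 and 0.380 with scrambled siRNA. CDK6 was a small part of the pool of D cyclin kinases, with 3.18% and 3.41% of the CDK4 and CDK6 sum per kb with RRM2 siRNA, against 2.19% and 1.95% with scrambled siRNA. That sum was 2007 and 1987 per kb with RRM2 siRNA and 2308 and 2370 with scrambled siRNA, so it followed CDK4. Each of these comparisons gave the exact permutation p = 0.333.

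CDC25A, the phosphatase that activates CDK2 (chromosome 3, 48157178 to 48188311, minus strand), had 823 and 818 normalized counts with RRM2 siRNA, against 732 and 661 with scrambled siRNA. Its increase, 0.24 on the log2 scale (SE 0.06; edgeR, adjusted p = 0.00446), was the smallest of the 9 in size. It is the member whose call depended on the test, with adjusted p = 0.0570 from DESeq2 (range over its alternatives 2.59e-04 to 0.0570). The log2 fold change was 0.31 without scrambled siRNA replicate 1 and 0.16 without scrambled siRNA replicate 2, and the control libraries lay further apart than the RRM2 siRNA libraries. Its promoter (RefSeq, GRCh38.p14, chr3:48188368-48188667, minus strand) is shown with a word of the E2F type in capitals. Among the windows of the 5 members that were searched, it is the only one with such a word. The words sought were TTTCGCGC or TTTGGCGC on both strands.
CDC25A: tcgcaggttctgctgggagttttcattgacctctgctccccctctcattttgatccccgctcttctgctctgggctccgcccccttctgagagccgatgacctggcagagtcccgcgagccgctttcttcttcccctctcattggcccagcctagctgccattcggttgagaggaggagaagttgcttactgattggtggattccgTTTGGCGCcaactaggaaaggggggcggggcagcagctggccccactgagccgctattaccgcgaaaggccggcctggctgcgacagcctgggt
The word begins 44 bases before the start on which the window is set, and 1.15% of the 35116 windows hold one. That start lies outside the CDC25A positions given above. E2F1, the factor best known for binding such words, was higher, with 1930 and 1864 normalized counts with RRM2 siRNA against 1310 and 1236 with scrambled siRNA. Of the other E2F genes, E2F2 and E2F7 were also higher, and E2F3 and E2F4 were lower. E2F3 passed only narrowly (edgeR, adjusted p = 0.0489). Whether any of these factors bears on CDC25A was not tested.

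The order of the members by level per kb changed little between groups. In both, CCND1 was highest, at 2845 with RRM2 siRNA and 3593 with scrambled siRNA on the means, and CDK4 was second, at 1931 with RRM2 siRNA and 2291 with scrambled siRNA. CDK2 and CCND3 were neighbours that changed places. CDK2 had 1309 and 1386 per kb and CCND3 had 1289 and 1296 per kb with RRM2 siRNA, a gap about as small as the spread of CDK2, while with scrambled siRNA CCND3 at 1037 and 1057 stood above CDK2 at 854 and 883. Below them came CCNE1, CDC25A, CCNE2, CDK6 and CCND2 in both groups, and CCND2 at 11.3 and 9.56 per kb with RRM2 siRNA and 23.5 and 24.7 with scrambled siRNA was lowest. Over the union of all exons CDK2 was above CCND3 in both groups, and CDK6 and CCNE2, nearly level with scrambled siRNA at 45.8 and 45.7 per kb, changed places.

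**Figure D3:**
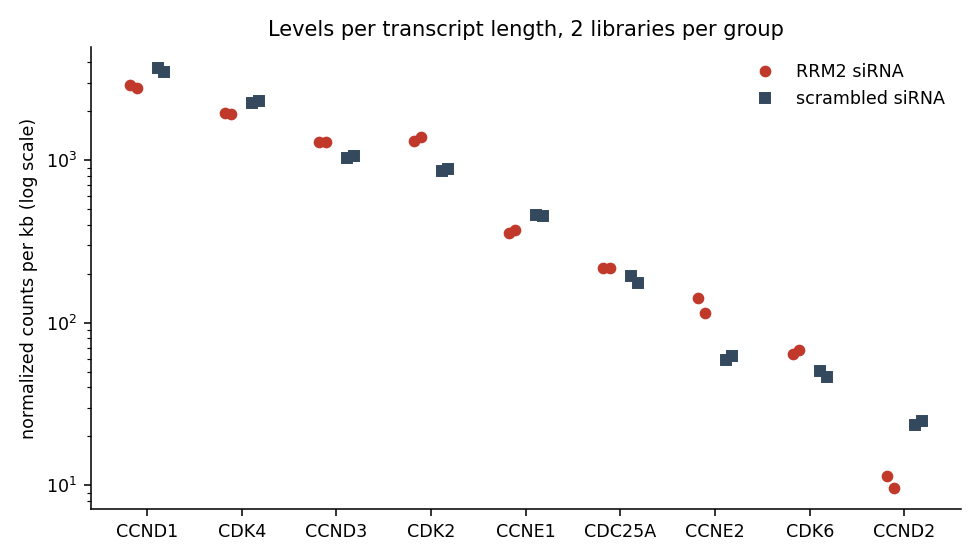
Normalized counts per kb of the longest principal transcript (vertical axis, log scale) for each member in RRM2 siRNA (red circles) and scrambled siRNA libraries (dark squares), ordered by the scrambled siRNA mean. CCND1 is highest in both groups and CCND2 lowest, and CDK2 and CCND3 lie closest to each other with RRM2 siRNA.

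A guide strand aimed at RRM2 can pair through its seed with the same word in the 3′ UTR of another mRNA and lower that mRNA. The word AAGTCCA, which lies in RRM2 on chr2:10129344-10129350 (plus strand, coding part of exon 10 of 10), was looked up in the members because earlier results of these data had singled it out. Of the tested genes with a 3′ UTR to search, 1612 (11.8%) hold the word. Since the word was chosen from these data, the changes of its carriers are no support for such pairing. Among the 9 members, 2 hold it in a 3′ UTR (GENCODE v29, GRCh38), and their sites are shown beside that of RRM2 with the word in capitals. The CCND2 word lies at chr12:4305039-4305045 (plus strand) and the CDK6 word at chr7:92607087-92607093 (minus strand).
RRM2: gagtgatgtcAAGTCCAacagagaatt
CCND2: atgccatatcAAGTCCAtgttattctc
CDK6: tcagatggagAAGTCCAagtttccatg
CCND2 was the member that fell most and CDK6 rose, so the 2 carriers lay on opposite sides of 0, and the part of such matches in either change was not tested. The siRNA sequences themselves were not at hand.

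Genes with a similar course over the 4 libraries were sought, for the 3 members past 1.5-fold, in a pool of 12329 genes that averaged 100 normalized counts or more. Likeness was the Euclidean distance of centred log2 CPM. Nearest to CCND2 were KLK2, C14orf119 and LNP1 (distances 0.083, 0.084 and 0.113). Nearest to CCNE2 were TMPRSS11E, MMP13 and PIDD1 (0.064, 0.094 and 0.103), and nearest to CDK2 were C10orf10, HERC5 and NACC2 (0.008, 0.010 and 0.019). With 2 groups of 2 libraries, such distances mostly say that the genes had a fold change of the same size.

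Other genes of the cell cycle were read from 6 lists on the G1/S pathway and G2/M, with 73 genes in all, each of them tested, of which 30 rose, 26 fell and 17 did not pass. Their median log2 fold change was 0.02, against -0.002 over all tested genes, of which 25.4% were higher and 25.0% lower. CDK inhibitors stood on the higher side: beside those shares, 5 of 7 were higher and 1 was lower, with a median of 0.49. CDKN1A (p21), which binds cyclin and CDK2 complexes and is induced by p53, had 27633 and 26807 normalized counts with RRM2 siRNA, against 5387 and 5622 with scrambled siRNA (log2 fold change 2.31, SE 0.04; edgeR, adjusted p = 7.74e-15). CDKN2B (p15), an inhibitor of CDK4 and CDK6, had 306 and 357 normalized counts with RRM2 siRNA, against 112 and 97.9 with scrambled siRNA (log2 fold change 1.66, SE 0.13; edgeR, adjusted p = 8.42e-08). The related INK4 genes CDKN2D (log2 fold change 0.82, SE 0.06) and CDKN2C (0.49, SE 0.08) rose as well (edgeR, adjusted p = 6.11e-08 and 1.79e-04). CDKN2A, also an INK4 gene, was the 1 that was lower (log2 fold change -0.29, SE 0.06; edgeR, adjusted p = 8.84e-04). CDKN1A overlaps DINO and CDKN2B overlaps CDKN2B-AS1, both on the opposite strand, with which they could share reads. CDKN2A overlaps CDKN2A-AS1, so the same limit holds for its value.

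Of 13 genes of the RB and E2F family 4 were higher, 4 lower and 5 did not pass, shares near the 25.4% higher and 25.0% lower over all tested genes, so the count shows nothing particular to the family. E2F7, a repressor of the E2F family, rose by 0.86 on the log2 scale (SE 0.09), E2F1 by 0.58 (SE 0.05) and E2F2 by 0.39 (SE 0.09). RBL1 (p107), a relative of RB, fell by 0.45 (SE 0.08; edgeR, adjusted p of the 4 genes from 2.13e-07 to 0.00235). The other lower genes of the family were RBL2, E2F4 and E2F3, with log2 fold changes of -0.343, -0.355 and -0.118 (edgeR, adjusted p = 6.26e-06, 2.00e-05 and 0.0489). The count of lower genes in the family was 3 with DESeq2, without a filter, without scaling factors or with a replicate block. Of 20 G1/S genes driven by E2F, 12 were higher, 6 lower and 2 did not pass, beside the same shares over all tested genes. The median of these 20 was 0.13. FEN1, a flap nuclease of DNA replication, rose by 0.69 (SE 0.04) and the licensing factor CDT1 by 0.58 (SE 0.05). SLBP, which binds histone mRNA, fell by 0.84 (SE 0.05) and PCNA, the sliding clamp, by 0.57 (SE 0.05; edgeR, adjusted p of the 4 genes from 6.36e-09 to 2.71e-07). The count of higher genes in this list was 7 without RRM2 siRNA replicate 1. PCNA overlaps PCNA-AS1 on the opposite strand, RBL2 overlaps AKTIP and E2F2 overlaps LOC101928163.

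**Figure D4:**
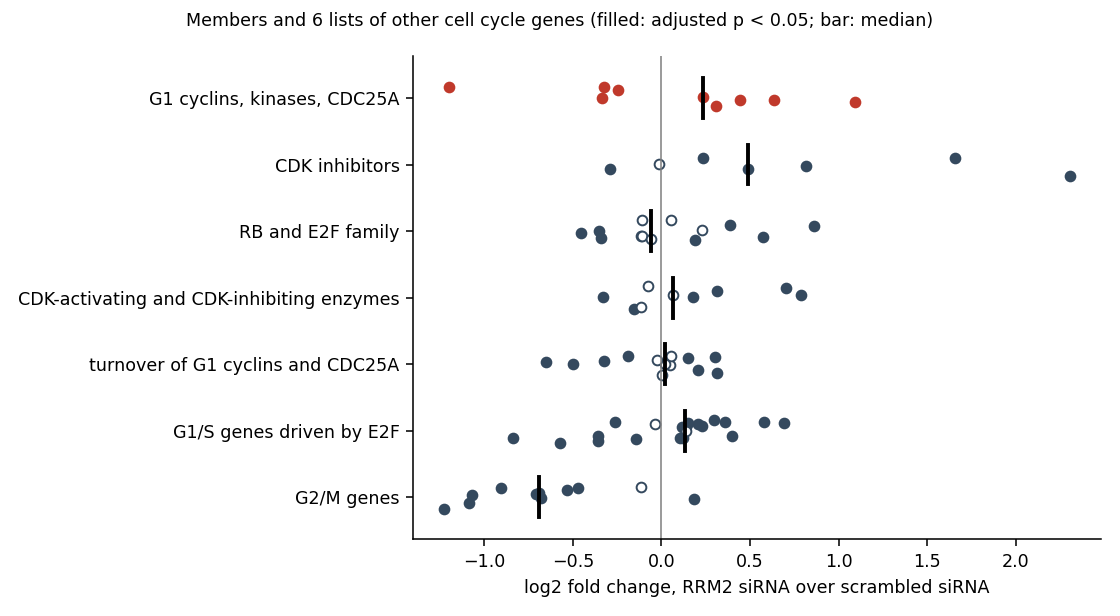
Log2 fold changes (horizontal axis, RRM2 siRNA over scrambled siRNA) of the 9 members in red and of 73 other genes in 6 lists, 1 point per gene, filled where the adjusted p was under 0.05, with the list median as a bar. The members spread to both sides of 0, most CDK inhibitors lie to the right and most G2/M genes to the left.

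A list of 9 genes for enzymes that activate or inhibit CDKs held 4 that were higher and 2 that were lower. Over all tested genes 25.4% were higher and 25.0% lower. The list also holds subunits of such enzymes and CDC37, which is not such an enzyme and is 1 of the 2 lower genes. WEE1 and PKMYT1, kinases that hold CDKs inactive, rose by 0.79 and 0.70 on the log2 scale (SE 0.05 and 0.06; edgeR, adjusted p = 8.31e-09 and 9.38e-08). CDC25C, a phosphatase of mitotic entry, had 329 and 342 normalized counts with RRM2 siRNA, against 259 and 280.1 with scrambled siRNA (edgeR, adjusted p = 0.00899, and adjusted p = 0.0970 from DESeq2 and 0.0655 without scrambled siRNA replicate 1). The DESeq2 count of higher genes in this list was 2. CCNH (cyclin H), a subunit of the CDK-activating kinase, fell by 0.33 (SE 0.05; edgeR, adjusted p = 8.51e-05). Of 13 genes for turnover of the G1 cyclins and CDC25A, 4 were higher, 4 lower and 5 did not pass, again near the 25.4% and 25.0% over all tested genes. SKP2, the F-box protein that targets the inhibitor p27, had 676 and 580.0 normalized counts with RRM2 siRNA, against 1025 and 953 with scrambled siRNA. CUL1, the scaffold of the same ligase, fell by 0.32 (SE 0.04), while the F-box genes BTRC and FBXW11, whose proteins direct the destruction of CDC25A, rose by 0.32 (SE 0.06) and 0.30 (SE 0.04; edgeR, adjusted p of the 4 genes from 1.81e-06 to 2.28e-04). PKMYT1 overlaps PAQR4 on the opposite strand, and CDC25C overlaps FAM53C.

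G2/M genes were mostly lower, with 9 of 11 lower, 1 higher and 1 that did not pass, and a median of -0.69. Over all tested genes 25.0% were lower and 25.4% higher. PLK1, a mitotic kinase, had 442 and 433 normalized counts with RRM2 siRNA, against 1073 and 975 with scrambled siRNA (log2 fold change -1.23, SE 0.06; edgeR, adjusted p = 1.43e-09). KIF20A, CDC20 and TOP2A fell by 1.09, 1.07 and 0.91 (edgeR, adjusted p from 1.12e-09 to 3.81e-09), and KIF20A overlaps CDC23, and PLK1 overlaps ERN2, on the opposite strand. The 9 members, by comparison, had 5 of 9 higher and a median of 0.24, and the difference between the members and this list was not tested.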

How the data were processed

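The deposited table holds estimated counts per gene, made by the authors in Partek Flow and not normalized, with 71.0% to 71.7% whole numbers per library. The sources used here name no aligner, annotation, strand setting or build; 99.6% of 24815 matched symbols overlap their GRCh38.p14 position, so that build is used, with the table's end lowered by 1. The 27 symbols turned into dates were kept without a name.

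Counts were rounded, passed through filterByExpr (15840 genes), scaled by TMM and tested in R 4.3.3 with the quasi-likelihood functions of edgeR 4.0.16, with Benjamini-Hochberg adjustment over all genes. SE is the log2 fold change over the root of F. The common dispersion was 0.0015, and replicates differed by more than sampling noise (chi-square per degree of freedom 35.3 for RRM2 siRNA and 3.66 for scrambled siRNA over all genes, and 1.98 for RRM2 siRNA and 2.95 for scrambled siRNA without structural RNA genes). The test was run on simulated data with the same dispersion for every gene and far fewer changed genes than here. Its error rate in data like these was therefore not checked.

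Alternatives were 2 other scalings (size factors of DESeq2, or none), 2 other filters, DESeq2 1.42.0, voom of limma 3.58.1, unrounded counts, leaving out structural RNA genes, a replicate block, each library left out and the 1.5-fold threshold. Genes named from the lists are the 4 or fewer with the largest change past the threshold whose mean reached 100 normalized counts. CDKN2A, RBL2, E2F3, E2F4 and CDC37 were named besides, after their values were seen. The members and lists were chosen with earlier results of these data known.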

Additional observations from a re-analysis of the deposited data

How the results depend on the processing

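All 9 members kept their direction under each of 13 alternatives, and 8 kept their call; CDC25A did not pass with DESeq2 (log2 fold change 0.24, adjusted p = 0.0570). With each library left out in turn, the log2 fold change ranged from -0.37 to -0.31 for CCND1, -1.33 to -1.09 for CCND2, 0.29 to 0.32 for CCND3, -0.36 to -0.29 for CCNE1, 0.92 to 1.24 for CCNE2, 0.59 to 0.67 for CDK2, -0.27 to -0.23 for CDK4, 0.38 to 0.51 for CDK6 and 0.16 to 0.31 for CDC25A. With a fold change over 1.5, 935 genes were higher and 831 lower, against 4029 and 3954 without it, and 2 members were higher and 1 lower, against 5 and 4. Whether same-numbered libraries were paired is stated in neither the labels nor the methods. The deviations of same-numbered libraries had a correlation of 0.04 over 12330 genes, which with 2 libraries per group cannot decide it. A replicate block gave 4157 genes higher and 4094 lower, with all 9 calls kept. CCND2 had the largest standard error of the members and 61 to 154 counts per library; the part of depth in it was not tested. A group left with 1 library was assumed to vary like the other group.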
